A study of Homo sapiens with 18 samples.

Results

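This account describes the combined knockdown of KDM1A and KDM7A in LNCaP cells, an androgen-dependent prostate cancer cell line derived from a lymph node metastasis. It rests on 6 of the 18 libraries of the series, chosen by their sample titles. The control group (siScr) was 3 libraries of LNCaP cells with a scrambled, non-targeting siRNA and R1881. The dual knockdown group was 3 libraries of LNCaP cells with R1881 that received siRNA pools for both KDM1A and KDM7A. R1881 is a synthetic androgen, used at 1 nM for 72 h in both groups, and siRNA was used at 10 nM. Cells were kept in medium with hormone-stripped serum, so R1881 was the added androgen. Neither target was knocked down alone in the libraries used here, so the contribution of each enzyme cannot be told apart. Dual knockdown libraries without R1881 were not analysed here. Another 3 LNCaP libraries with siScr and vehicle entered the fit for its estimate of the spread, and C4-2, an androgen-independent line derived from LNCaP, served for comparison. The labels do not say that replicates came from separate cultures, so p-values measure the spread between these libraries, which may be technical.

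KDM1A (LSD1) removes methyl groups from lysine 4 and lysine 9 of histone H3 and works within the CoREST repressor complex. KDM7A belongs to another enzyme family, the Jumonji demethylases, and removes dimethyl marks from lysine 9 and lysine 27 of histone H3, which are marks of repressed chromatin. Both enzymes are studied as coregulators of the androgen response in prostate cancer cells.

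The values are read pairs per gene as counts, scaled to CPM (counts per 1e6 counts of the library) with TMM factors. Total counts were 14350626 to 18713825 in the siScr libraries and 16522341 to 19472018 in the dual knockdown libraries. Replicates of a group differed by more than counting error, so no library was a second copy of another. The luminal prostate markers KRT8 and KLK3 each stood at 1265 CPM or more in all 6 libraries, while 1 of 6 basal markers (TP63), 1 of 6 fibroblast markers (DCN) and 2 of 5 endothelial markers (PECAM1 and CDH5) had 0 counts in each. Other members of these lists were present, with ITGA6 (basal) at 77.06 to 96.28 CPM, VWF (endothelial) at 14.08 to 20.9 CPM and COL1A1 (fibroblast) at 6.85 to 12.69 CPM, and the rest, immune markers included, stood at 2.09 CPM or less. A change is given as log2FC, dual knockdown over siScr, with the standard error (SE) of edgeR's quasi-likelihood fit, and an adjusted p is that fit's Benjamini-Hochberg value over the 17162 genes tested. GC content is the percentage of G and C in the transcripts of a gene.

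Both targets were lowered, by about the same proportion. KDM1A (chr1:23019448-23083689) stood at 104, 106 and 112 CPM in the siScr libraries and at 49.0, 52.2 and 54.4 CPM in the dual knockdown libraries, a log2FC of -1.05 ± 0.06 (SE). KDM7A (chr7:140084746-140177035) stood at 55.2, 64.0 and 58.6 CPM with siScr and at 28.0, 31.5 and 33.6 CPM with dual knockdown, a log2FC of -0.93 ± 0.09 (SE). The groups overlapped for neither gene, yet each dual knockdown library kept 45.6% to 50.6% of the siScr mean of KDM1A and 47.3% to 56.7% of that of KDM7A. In bulk RNA, a partial loss in every cell and a full loss in a share of cells cannot be told apart. In C4-2 the same siRNA pools left less, with a log2FC of -3.11 for KDM1A and -2.51 for KDM7A. The difference between the lines, fitted as an interaction over 12 libraries, passed an adjusted p for both (2.78e-09 and 2.62e-07).

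Across all genes the change in LNCaP followed base composition. GC-rich genes were higher and GC-poor genes lower in the dual knockdown libraries. To show the contrast, 90 bases from the centre of the coding sequence are printed for 2 genes that were up-regulated, C4orf48 and ENDOG, and 2 that were down-regulated, SYTL2 and F5 (GENCODE 29 transcripts, build GRCh38, on chromosomes 4, 9, 11 and 1, 5′ to 3′ of the transcript). Every G and C is in capitals.
C4orf48: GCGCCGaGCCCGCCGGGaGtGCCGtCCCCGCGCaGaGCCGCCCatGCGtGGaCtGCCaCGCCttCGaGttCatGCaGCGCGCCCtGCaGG
ENDOG: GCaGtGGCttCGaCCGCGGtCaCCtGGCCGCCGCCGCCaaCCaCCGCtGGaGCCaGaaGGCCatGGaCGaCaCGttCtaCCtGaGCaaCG
SYTL2: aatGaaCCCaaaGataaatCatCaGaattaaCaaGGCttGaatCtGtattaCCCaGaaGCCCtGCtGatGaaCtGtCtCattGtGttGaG
F5: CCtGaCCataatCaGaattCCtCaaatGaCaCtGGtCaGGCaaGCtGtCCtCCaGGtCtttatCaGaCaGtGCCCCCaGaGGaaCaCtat

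The stretch of C4orf48 holds 75.6% G and C and that of ENDOG 67.8%, against 38.9% for SYTL2 and 48.9% for F5. Over the whole coding sequences the values were 75.8%, 68.8%, 43.3% and 45.3% in the same order. These genes serve as examples of base composition only, and the falls of SYTL2 and F5 remained after the GC correction described below.

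Across 17033 genes with a GC content, the Spearman correlation of log2FC with GC content was 0.544, given as a description across genes of the same libraries, which are not independent replicates. In the tenth of genes with the lowest GC content, up to 39.63%, the median log2FC was -0.15, with 0.352% of genes up-regulated and 14.6% down-regulated at an adjusted p under 0.05. In the tenth with the highest, above 61.49%, the median was 0.35, with 36.1% up-regulated and 0 of 1704 genes down-regulated. The plot of the GC deciles shows the shift running through all the bins between them. Gene length moved with the groups as well, with a Spearman correlation of -0.21 between log2FC and length.

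**Figure D1:**
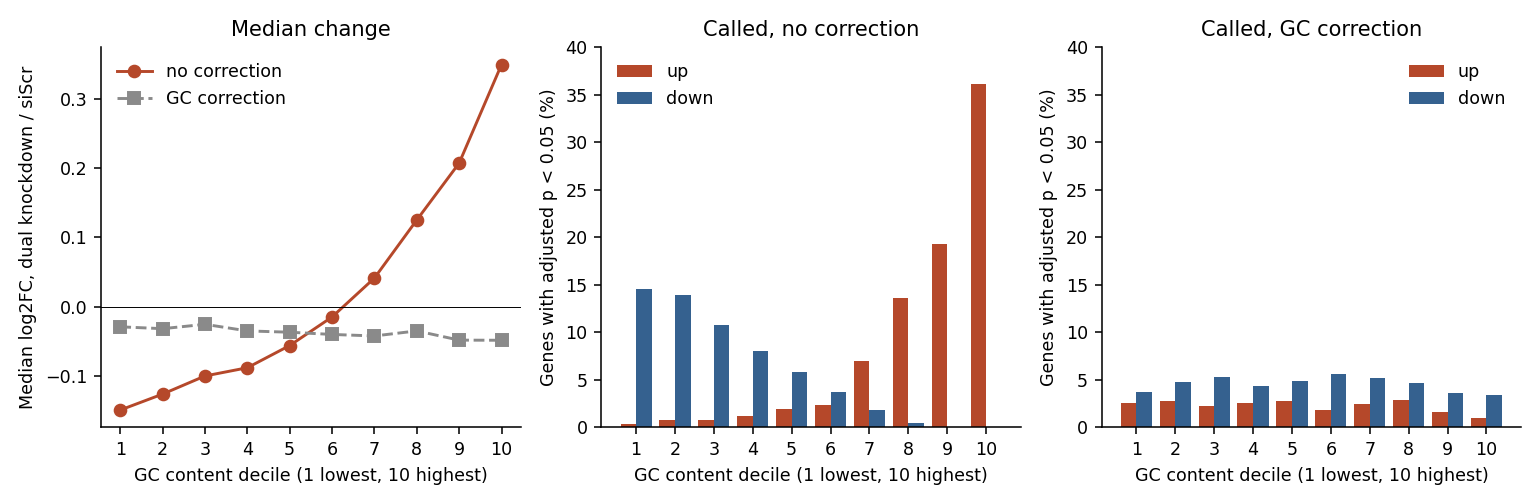
Genes were sorted into deciles of GC content (horizontal axes). The left panel plots the median log2FC of dual knockdown over siScr per decile, which ran from -0.15 to 0.35 without correction and stayed between -0.05 and -0.03 with it. The middle and right panels plot the percentage of genes in each decile called up (red) or down (blue) at an adjusted p under 0.05.

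The trend was also present library by library. The slope of log2 counts on GC content, relative to the siScr mean, was 0.188, 0.214 and 0.18 per 10 percentage points in the dual knockdown libraries and 0.0947, -0.0852 and -0.00953 in the siScr libraries. The lowest dual knockdown slope lay above the highest siScr slope, and the 2-sided exact permutation test gave p = 0.1, the smallest that 3 libraries against 3 allow. The siScr libraries with vehicle, which carry no knockdown, had slopes of 0.171, 0.0117 and 0.147. Of these, 2 came near the slopes of the dual knockdown group. The vehicle libraries also lacked R1881, so they differ from the dual knockdown group in more than the knockdown. What set the slopes was not tested, and with 3 libraries a group the slope and the knockdown cannot be told apart.

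For this reason each comparison was fitted again with the GC trend of every library removed (GC-corrected fit), and once more with the trends of GC content and length removed together. By construction the first brought the correlation with GC content close to 0, at -0.0124. Genes that passed in the original and the GC-corrected fit with the same direction are called remaining genes below.

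At an adjusted p under 0.05 alone, 2431 genes changed, which is 14.2% of those tested. Of these 1420 were up-regulated (8.27%) and 1011 down-regulated (5.89%), and 1950 had an absolute log2FC under 0.5. After the GC correction 1167 genes passed (6.8%), and the split turned to 385 up and 782 down. Over all genes tested, the corrected fit had a median log2FC of -0.0377, with 7265 genes higher and 9896 lower. In the original fit the median was 0.00098, with 8610 higher and 8551 lower. How far this shift set the split, also among genes that pass both fits, was not tested. With GC content and length removed together, 383 were up (2.23%) and 293 down (1.71%). Passing both of the first fits were 744 genes (4.34%), 247 up (1.44%) and 497 down (2.9%). The counts depended on single libraries. The 2431 genes became 839 and 957 without siScr replicate 2 or 3, and 918 and 840 without dual knockdown replicate 1 or 2. The 744 became 252, 339 and 357 without siScr replicate 1, 2 or 3, and 265 and 299 without dual knockdown replicate 1 or 2.

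With a 2-fold change also required, 49 genes passed (0.286%), 27 up (0.157%) and 22 down (0.128%). The median GC content was 64.2% for the genes that rose and 42.2% for those that fell, against 48.95% over all genes tested. Of the 26 that rose and have a GC content, 25 lay above that median, against 6 of 21 that fell. Most were barely expressed. A mean under 1 CPM held for 27 of them, 15 lay between 1 and 5 CPM, and 7 reached 5 CPM. Libraries of the groups did not overlap for 48 of the 49, against 34.6% of all genes tested. The 49 were chosen by their change in these same libraries, so the lack of overlap largely follows from that choice. Leaving out siScr replicate 2 or 3 left 16 or 32 genes, and leaving out dual knockdown replicate 1 or 2 left 14 or 17.

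In the GC-corrected fit 14 genes passed both thresholds (0.0816%), of which 12 were among the 49, with 2 up and 10 down. The 12 included CNTN5, DZIP1L and CACNA1B, whose means in all groups compared were under 1 CPM. The 12 became 4, 7, 4 and 5 without siScr replicate 1 or 2 or dual knockdown replicate 1 or 2, and 21 without vehicle replicate 1. Reaching a mean of 1 CPM were 5 genes, namely KDM1A, DZIP1, LRRC39, CERK and ENSG00000277048. DZIP1, a zinc finger protein of cilium assembly, was at 3.73, 4.76 and 2.05 CPM with siScr and at 1.03, 0.963 and 1.71 CPM with dual knockdown (log2FC -1.48 ± 0.41 SE, adjusted p = 0.0256). CERK, ceramide kinase, was at 3.29, 2.52 and 1.88 CPM with siScr and at 1.47, 0.856 and 1.18 CPM with dual knockdown (log2FC -1.15 ± 0.29 SE, adjusted p = 0.0173). LRRC39, a leucine-rich repeat protein, averaged 1.75 CPM with siScr and 0.76 CPM with dual knockdown. All 3 fell without overlap of the groups. They rested on few counts, between 129 and 236 over the 6 libraries, and the call of each was lost in some of the 9 fits that leave out 1 library. In the original fit DZIP1 lost it without siScr replicate 2 or dual knockdown replicate 1 or 2. CERK lost it without siScr replicate 1 or 2 or dual knockdown replicate 2, and LRRC39 without dual knockdown replicate 1. In the corrected fits without 1 library, LRRC39 passed in 3 of 9, DZIP1 in 4 and CERK in 6.

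ENSG00000277048, a 57-base feature on the scaffold KI270733.1 with no symbol in the tables used, was the highest of the 49 in level. It stood at 75.8, 75.0 and 51.8 CPM with siScr and at 118, 127 and 470 CPM with dual knockdown. Replicate 3 of the dual knockdown group carried most of its log2FC of 1.82, which was 0.86 without that library. It has no GC value, so the GC correction left it as it was.

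Among the genes of at least 5 CPM that rose 2-fold, TMEM160 lost its call after the GC correction (log2FC from 1.01 to 0.43, adjusted p = 0.0744). C4orf48 (chr4:2041993-2043970) and ENDOG, the mitochondrial endonuclease G (chr9:128818474-128822677), kept an adjusted p but not 2-fold, falling from 1.07 to 0.49 and from 1.05 to 0.50 in log2FC. In the corrected fits without 1 library, C4orf48 passed in 4 of 9 and ENDOG in 6 of 9.

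ID1 and ID3 kept most of their change. They encode inhibitors of DNA binding, helix-loop-helix proteins that lack a DNA-binding region and sequester basic helix-loop-helix transcription factors, and both are classic targets of BMP signalling through SMAD proteins. The 250 bases before each start site are shown because the pair rose together (RefSeq, GRCh38.p14). That of ID1 lies at chr20:31605039-31605288 on the plus strand and that of ID3 at chr1:23559502-23559751 on the minus strand. Capitals mark matches, on either strand, to GGCGCC (a GC-rich SMAD element), TGACG (one arm of the cAMP response element), CACGTG (an E-box) and GGGCGG (a GC box of SP and KLF factors).
ID1: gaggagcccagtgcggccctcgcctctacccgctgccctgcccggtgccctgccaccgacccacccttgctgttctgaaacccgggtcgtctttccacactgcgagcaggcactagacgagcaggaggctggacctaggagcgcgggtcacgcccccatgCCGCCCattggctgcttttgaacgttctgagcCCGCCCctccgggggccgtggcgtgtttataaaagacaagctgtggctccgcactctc
ID3: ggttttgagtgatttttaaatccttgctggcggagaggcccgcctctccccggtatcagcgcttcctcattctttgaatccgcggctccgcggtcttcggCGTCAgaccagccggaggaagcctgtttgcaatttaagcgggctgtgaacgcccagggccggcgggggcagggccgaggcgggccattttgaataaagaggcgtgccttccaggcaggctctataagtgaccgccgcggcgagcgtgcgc

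The window of ID1 holds 2 matches to the GC box, and that of ID3 holds 1 to the arm of the cAMP response element. The GC box occurs in 42.6% of 35114 such windows and that arm in 21.2%, while GGCGCC occurs in 16.4% and CACGTG in 6.3% and in neither window here. The windows are 66.0% and 62.0% G and C, against a median of 58.0%.

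ID1 stood at 9.05, 9.73 and 5.75 CPM in the siScr libraries and at 16.0, 18.6 and 18.8 CPM in the dual knockdown libraries, a log2FC of 1.13 ± 0.19 (SE). ID3 stood at 22.0, 26.7 and 21.5 CPM with siScr and at 48.1, 49.9 and 43.7 CPM with dual knockdown, a log2FC of 1.02 ± 0.12 (SE). For both, every dual knockdown library lay above every siScr library. After the GC correction the log2FC was 0.93 for ID1 (adjusted p = 0.0052) and 0.84 for ID3 (adjusted p = 0.000648), and both passed in all 9 fits that leave out 1 library, with and without the correction. ID2, another member of the family, averaged 26.1 ± 4.74 CPM with siScr and 28.3 ± 2.55 CPM with dual knockdown (SD, n = 3) and did not pass in LNCaP (edgeR adjusted p = 0.557). Of 20 tested genes of the ID and BMP-SMAD list, 4 rose and 4 fell, against 8.27% and 5.89% of all genes. The list had a median log2FC of -0.03 against 0.00098 over all genes tested. The remaining genes of that list were ID1 and ID3, which rose, and 2 receptor genes that fell, with the activin receptor ACVR2A among them (log2FC -0.42 ± 0.08 SE), which passed in 6 of the 9 corrected fits without 1 library. In C4-2 ID1 and ID3 rose further, with a log2FC of 2.34 and 1.58, and the difference between the lines passed for both (adjusted p = 0.00156 and 0.0389).

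**Figure D2:**
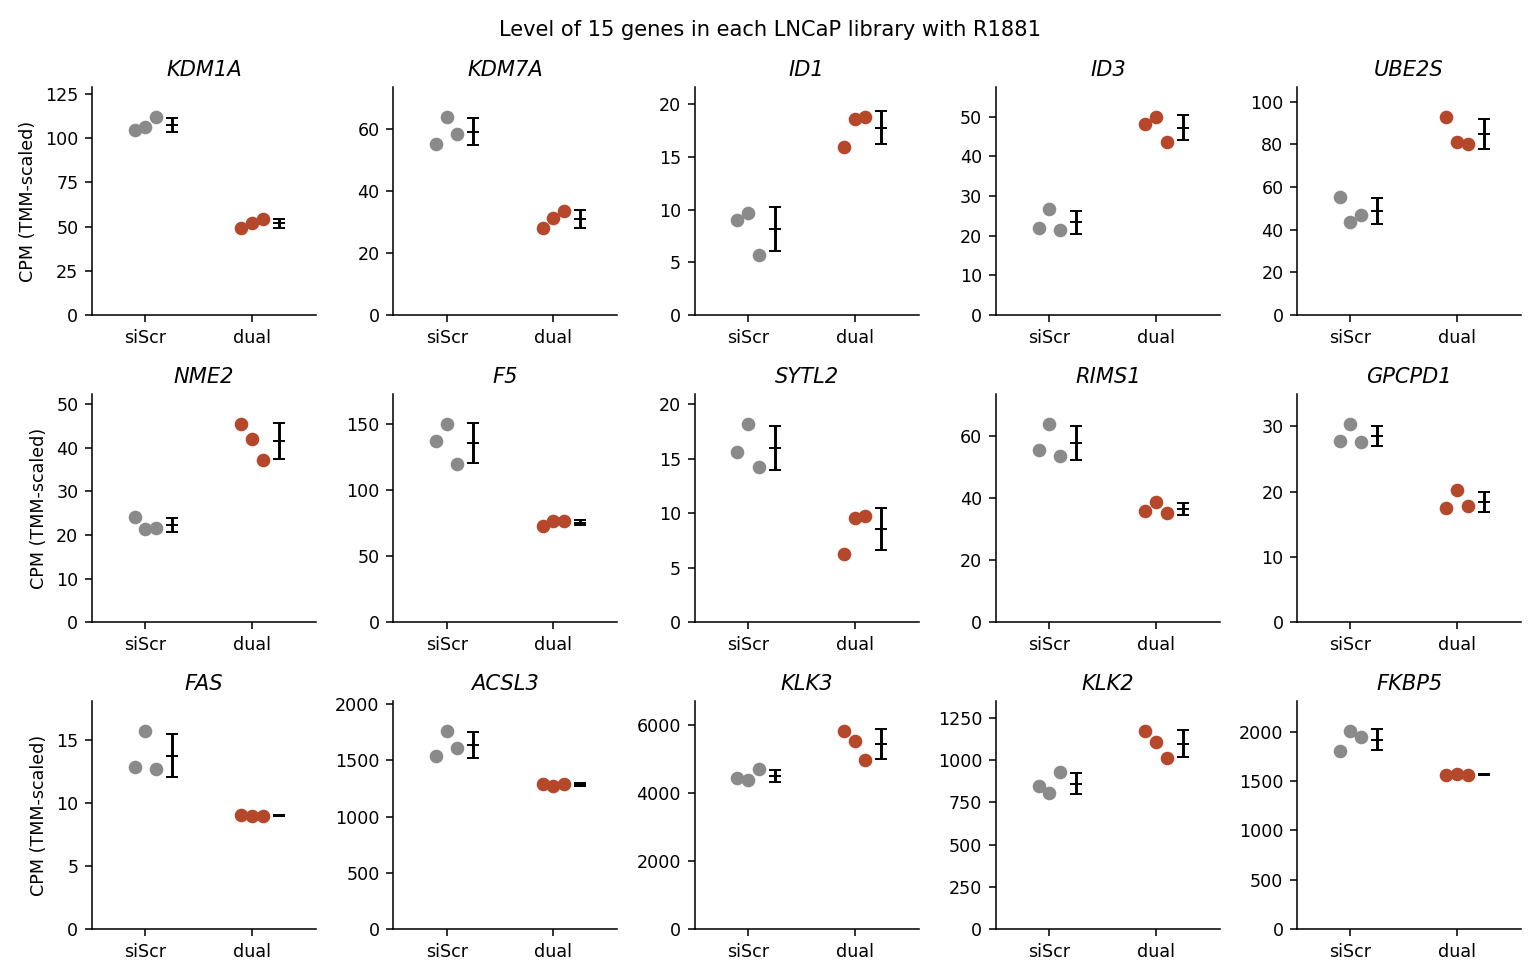
The vertical axes give CPM with TMM scaling, from 0, for 15 genes in the 3 siScr (grey) and 3 dual knockdown (red) libraries of LNCaP cells with R1881. Bars show mean ± SD, and the groups overlap for none of the 15 genes.

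The account was then restricted to protein-coding genes of at least 5 CPM, of which 10421 were tested. Of these, 705 remained and also had libraries that did not overlap between the groups, 239 up and 466 down. Their changes were small, with a median log2FC of 0.39 for those that rose and -0.30 for those that fell. The genes that fell were also long, with a median exonic length of 9018 bases against 3259 for those that rose. When length was removed together with GC content, 196 of the 239 and 181 of the 466 still passed. Described next are the 15 largest increases and 15 largest decreases among the 705, KDM1A and KDM7A included. The 15 that rose had a GC content of 53.6% to 73.8% and the 15 that fell 37.6% to 55.5%, so the ends of the list still differed in base composition. Of the 30, 26 also passed with length removed, and ZFHX4, ZNF428, SRXN1 and NDUFB7 did not. Without any 1 of the 9 libraries, 26 kept an adjusted p in every uncorrected fit, and 16 kept it in every corrected fit as well.

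Among the genes that rose, NME2, a nucleoside diphosphate kinase, went from 24.1, 21.3 and 21.5 CPM with siScr to 45.4, 42.1 and 37.2 CPM with dual knockdown. Its log2FC was 0.89 ± 0.11 (SE) and 0.76 after the GC correction. NME2 overlaps its near-identical neighbour NME1, so reads may be split between them. UBE2S, the ubiquitin-conjugating enzyme that extends chains for the anaphase-promoting complex, went from 55.5, 43.9 and 47.0 CPM to 92.9, 81.4 and 80.1 CPM, a log2FC of 0.79 ± 0.11 (SE) and 0.58 after correction. HSPB1, the small heat shock protein HSP27, went from 243, 207 and 204 CPM to 378, 391 and 381 CPM. Its log2FC of 0.81 ± 0.11 (SE) became 0.42 after correction (adjusted p = 0.00159). For these 3 genes the groups lay far apart and the call held in all fits without 1 library.

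MESP1, a basic helix-loop-helix transcription factor, rose from a mean of 25.4 to 46.0 CPM, with a log2FC of 0.86 that became 0.57. TUBA3D and TUBA3E, alpha-tubulin genes of near-identical sequence whose reads may be split, rose by 0.75 and 0.84. METRN, a secreted neurotrophic protein, TSPO, a cholesterol-binding protein of the outer mitochondrial membrane, and NDUFB7, a subunit of respiratory complex I, rose by 0.84, 0.83 and 0.80. Their GC content was 68.1%, 64.7% and 65.0%, and their log2FC shrank to 0.29, 0.40 and 0.35 after the GC correction. ZNF428, a zinc finger gene, and SRXN1, which encodes the antioxidant enzyme sulfiredoxin, rose by 0.75 and 0.78. SRXN1 lost its call without siScr replicate 2 or 3 or any of the dual knockdown libraries. In the corrected fits without 1 library, ZNF428 passed in 3 of 9, METRN and SRXN1 in 4, TUBA3D and NDUFB7 in 5 and TSPO in 6. TUBA3E passed in 8 of these fits and MESP1 in all 9.

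Among the genes that fell, F5, coagulation factor V (chr1:169514166-169586588), had the lowest adjusted p of those that are not targets. It stood at 137, 150 and 120 CPM in the siScr libraries and at 73.0, 76.3 and 76.6 CPM in the dual knockdown libraries, a log2FC of -0.85 ± 0.08 (SE, adjusted p = 4.66e-05) and -0.79 after the GC correction. Vehicle libraries averaged 0.884 CPM, and 55.6% of the siScr mean with R1881 was left with dual knockdown. MAK, a kinase named for its expression in male germ cells, averaged 6.05 CPM with vehicle and 28.1 ± 1.46 CPM with siScr and R1881, and fell to 17.8 ± 1.74 CPM with dual knockdown (SD, n = 3). DUSP5, a nuclear phosphatase of ERK, averaged 2.86 CPM with vehicle and went from 8.17, 5.77 and 5.69 CPM with siScr to 4.17, 4.17 and 3.53 CPM. All 3 were higher with R1881 than with vehicle and lower with dual knockdown. Over all genes tested, 46.6% changed with R1881. The R1881 comparison uses the same siScr libraries, so the opposite signs are not independent. In the original fit MAK lost its call without siScr replicate 2 or dual knockdown replicate 1 or 2. DUSP5 lost it without siScr replicate 1 or any of the dual knockdown libraries. In the corrected fits without 1 library, MAK passed in 4 of 9 and DUSP5 in 8.

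Other genes that fell were lower with R1881 already. SYTL2, a synaptotagmin-like effector of vesicle exocytosis, averaged 39.4 CPM with vehicle and stood at 15.6, 18.2 and 14.2 CPM with siScr and R1881 and at 6.28, 9.58 and 9.69 CPM with dual knockdown (log2FC -0.89 ± 0.14 SE). PTPRR, a receptor-type tyrosine phosphatase, averaged 51.3 CPM with vehicle, 23.8 CPM with siScr and R1881 and 15.9 CPM with dual knockdown. ZFHX4, a zinc finger homeobox gene, fell with a log2FC of -0.59 and passed in 7 of 9 corrected fits without 1 library.

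RIMS1, a scaffold of the presynaptic active zone, fell from 55.5, 63.7 and 53.3 CPM to 35.7, 38.6 and 35.0 CPM, a log2FC of -0.66 ± 0.08 (SE). GPCPD1, which cleaves glycerophosphocholine, fell from 27.8, 30.3 and 27.6 CPM to 17.4, 20.2 and 17.7 CPM, a log2FC of -0.63 ± 0.09 (SE). With vehicle they averaged 58.5 and 32.3 CPM, and both held in every fit without 1 library. SORBS2, an adaptor of the actin cytoskeleton, and SLITRK6, a neuronal transmembrane protein, fell by 0.60 and 0.58 on the log2 scale. The histone genes H4C5 and H2BC18 fell by 0.72 and 0.57, but histone copies are near-identical and replication-dependent histone mRNAs carry no poly(A) tail, so their counts are uncertain. H4C5 lost its call in the original fit without siScr replicate 2 or dual knockdown replicate 2. In the corrected fits without 1 library, H4C5 and SLITRK6 each passed in 5 of 9.

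**Figure D3:**
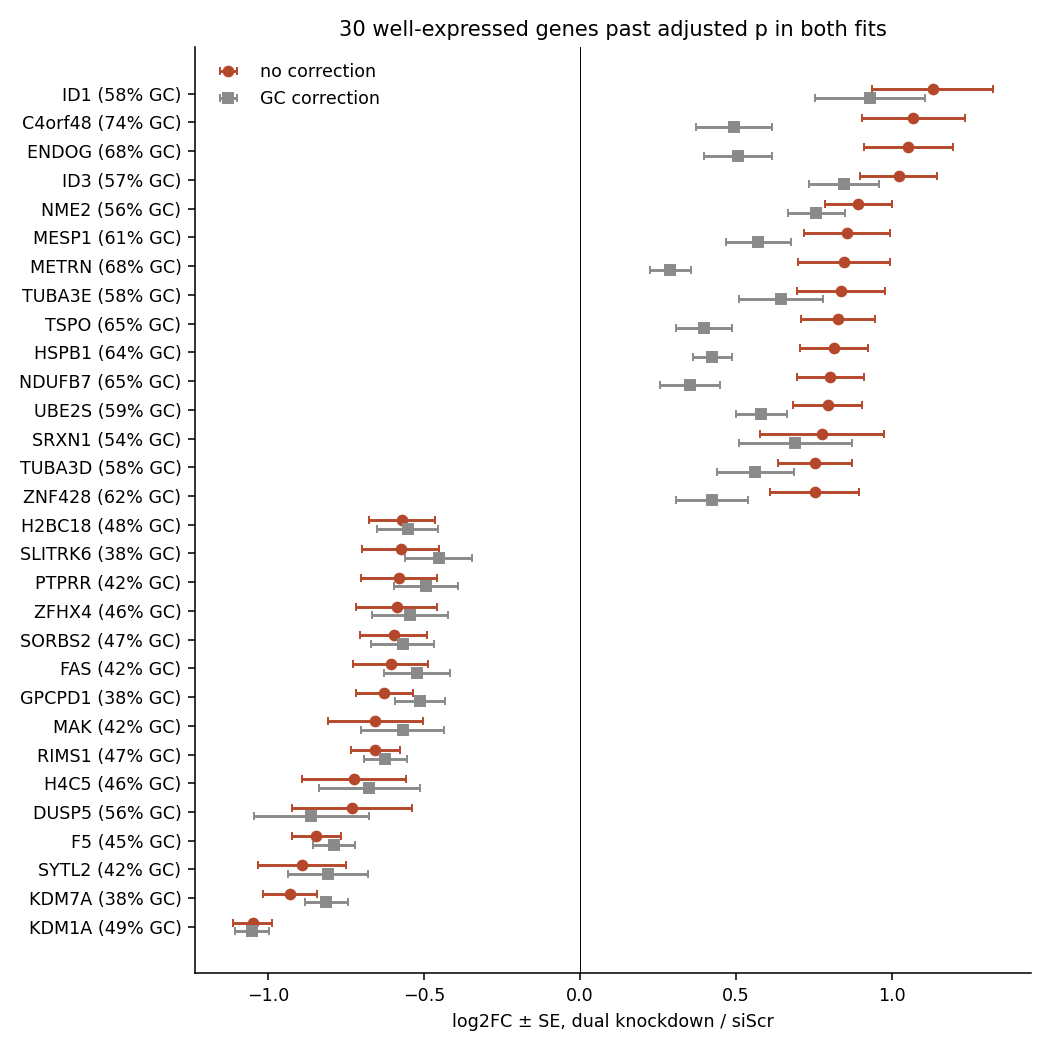
Each row is 1 of the 15 genes that rose most and the 15 that fell most among well-expressed genes, with its GC content. Points give log2FC ± SE without (red circles) and with (grey squares) the GC correction, and the correction shrank the changes of the GC-rich genes at the top more than those of ID1, ID3, NME2 and the genes that fell.

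Genes of the androgen response did not move in one direction. GATA2, a transcription factor of luminal prostate cells, was an example of a rise (log2FC 0.42 ± 0.08 SE) that did not remain, with a GC content of 62.6% and a corrected log2FC of 0.06. FOXA1, a pioneer factor that opens chromatin in luminal prostate cells, averaged 436 CPM with siScr and 457 CPM with dual knockdown and passed in no fit. Its log2FC of 0.07 turned to -0.046 under the GC correction.

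Of 30 tested androgen-induced genes, 6 rose and 8 fell, against 8.27% and 5.89% of all genes tested, with a median log2FC of -0.08. After the GC correction 2 rose and 7 fell, against 2.24% and 4.56% of all genes, with a median of -0.10. Whether these counts differ from the shares over all genes was not tested. KLK3, which encodes prostate-specific antigen, stood at 4438, 4371 and 4701 CPM with siScr and at 5811, 5514 and 4966 CPM with dual knockdown. That rise (log2FC 0.27 ± 0.06 SE, adjusted p = 0.00965) did not pass after the GC correction (log2FC 0.12, adjusted p = 0.211), nor in the original fit without siScr replicate 2 or dual knockdown replicate 1 or 2. KLK2, a neighbouring kallikrein of similar sequence, stood at 846, 805 and 930 CPM with siScr and at 1171, 1109 and 1014 CPM with dual knockdown, and its rise remained (log2FC 0.35, corrected 0.25, adjusted p = 0.0172). In the corrected fit KLK2 passed in 5 of 9 fits without 1 library. PLPP1, a lipid phosphatase, rose as well, with a log2FC of 0.40 ± 0.06 (SE) that remained at 0.34. TMPRSS2, a standard androgen target, averaged 1197 CPM with siScr and 1271 CPM with dual knockdown and did not pass.

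ACSL3 and FKBP5, both androgen-induced, fell slightly. ACSL3, a fatty acid-activating enzyme, went from 1537, 1759 and 1608 CPM to 1288, 1274 and 1292 CPM, a log2FC of -0.35 ± 0.06 (SE). FKBP5, a co-chaperone of steroid receptors, went from 1802, 2004 and 1949 CPM to 1560, 1568 and 1562 CPM, a log2FC of -0.29 ± 0.05 (SE). Both remained after the GC correction, at -0.25 and -0.22, and in all fits without 1 library, with and without the correction. With length removed too, ACSL3 passed (adjusted p = 0.0129) and FKBP5 did not (adjusted p = 0.0842). STEAP4, a metalloreductase, fell by 0.42 on the log2 scale and passed in 5 of 9 corrected fits without 1 library. LRIG1, a negative regulator of ERBB receptors, fell by 0.21 on the log2 scale and passed in 4 of the 9 original fits that leave out 1 library and in all 9 corrected ones. Every library whose omission cost LRIG1 the call was one of the 6 compared.

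Of 15 tested androgen-repressed genes, 0 rose and 2 fell, against 8.27% and 5.89% of all genes. After the correction 2 rose and 2 fell, against 2.24% and 4.56% of all genes. SESN3, a stress-induced sestrin, and DDC, the decarboxylase that makes dopamine, fell by 0.35 each, though R1881 alone had lowered both, from 409 to 137 CPM and from 487 to 31.6 CPM. DDC lost its call without siScr replicate 2 or dual knockdown replicate 2. UGT2B17, which glucuronidates androgens and shares most of its sequence with UGT2B15, passed after the correction (log2FC 0.27, adjusted p = 0.00535) and not in the original fit with all libraries, where it passed without siScr replicate 2.

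Among the chromatin enzymes related to the targets, the lists held more genes that fell than rose, as did all genes tested after the GC correction (2.24% up and 4.56% down) but not before it (8.27% and 5.89%). Of 17 tested histone demethylase genes, the target KDM7A among them, 1 rose and 4 fell, with 0 and 6 after the GC correction. KDM7A is one of those that fell in each fit. Of 18 histone methyltransferase genes, 0 rose and 4 fell in the original fit and 0 rose and 4 fell in the corrected fit, but the genes that fell in both numbered 2. With length removed as well, 1 rose and 2 fell. KMT2C, a methyltransferase of lysine 4 of histone H3 at enhancers, fell with a log2FC of -0.46 ± 0.07 (SE), from a mean of 244 to 177 CPM, and remained at -0.40. JMJD1C, a Jumonji protein related to the KDM3 demethylases, fell from 90.8, 94.9 and 89.7 CPM to 68.0, 68.9 and 69.0 CPM, a log2FC of -0.42 ± 0.07 (SE), and remained at -0.31. Both held without any 1 library. KDM3B, a demethylase of lysine 9, and KMT2A fell by 0.24 and 0.33. In the original fit KDM3B lost its call without siScr replicate 3 or dual knockdown replicate 1 or 2, and KMT2A without dual knockdown replicate 1. KMT2A passed in 7 of the 9 corrected fits without 1 library, and KDM3B in all 9. These transcripts are long, with exonic lengths of 7961 to 21961 bases, and with length removed KMT2A did not pass (adjusted p = 0.076). Of the 15 tested members of the CoREST list, KDM1A among them, 2 rose and 4 fell, and 1 remained, which was KDM1A.

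The p53 target list split, with 4 of 22 up and 5 down, against 8.27% and 5.89% of all genes. After the GC correction 1 was up and 6 were down, against 2.24% and 4.56% of all genes. FAS, the death receptor, fell from 12.9, 15.7 and 12.7 CPM to between 8.99 and 9.04 CPM in the 3 dual knockdown libraries, a log2FC of -0.61 ± 0.12 (SE). SESN1, a sestrin, ZMAT3, an RNA-binding zinc finger protein, and BTG2, an antiproliferative factor, fell by 0.36, 0.37 and 0.33 on the log2 scale, and after correction by 0.27, 0.30 and 0.37. FAS, SESN1 and ZMAT3 passed in every fit without 1 library, and BTG2 lost its call in the original fit without dual knockdown replicate 1 or 2. CCNG1, cyclin G1, was higher in both fits, with a log2FC of 0.17 before the correction and 0.27 after it. It passed after the correction only (edgeR adjusted p = 0.00448).

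Calls in the lists of proliferation and stress genes changed with the correction. Of 24 tested genes for DNA replication and S phase 6 rose and 1 fell, and of 20 for the unfolded protein and integrated stress response 6 rose and 1 fell, against 8.27% and 5.89% of all genes. After the GC correction 0 of either list passed in either direction, against 2.24% and 4.56% of all genes. Their medians moved less, from a log2FC of 0.077 to 0.067 for S phase, with 18 of 24 genes still higher, and from 0.10 to 0.060 for the stress list, with 15 of 20 still higher. The same shares of all genes apply to the lists that follow. Of 23 interferon and RNA-sensing genes 3 rose and 0 fell, with 0 and 1 after the correction. For mitosis and G2/M, 3 of 22 rose and 2 fell, with 3 and 1 after it and a median log2FC of 0.04 that became 0.09. The counts for neuronal and neuroendocrine genes were 0 up and 2 down of 13, with 0 and 1 after it, and for epithelial-mesenchymal genes 4 up and 2 down of 19, with 1 and 1 after it. CDH1, the epithelial cadherin, was the gene of that last list that remained, going from a mean of 667 to 571 CPM (log2FC -0.22 ± 0.05 SE). Of 24 genes for cholesterol and fatty acid synthesis 3 rose and 5 fell, with 1 and 7 after the correction. ACACA, the first committed enzyme of fatty acid synthesis, fell from 1434, 1427 and 1395 CPM to 1135, 1220 and 1152 CPM. Of 9 replication-dependent histone genes 0 rose and 1 fell, and of 13 mitochondrial-encoded mRNAs none passed in the original edgeR fit, with 2 up after the GC correction.

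Ribosomal protein genes were higher with dual knockdown almost throughout. They were gathered by symbol after the data had been seen, so their count is a description. Of 79, 37 rose and 0 fell, against 8.27% and 5.89% of all genes, and 76 were higher with dual knockdown, with a median log2FC of 0.22. After the GC correction 21 rose and 0 fell, with a median of 0.21, against 2.24% of all genes rising. Of the 11132 genes of at least 5 CPM, 1348 rose in the original fit and 382 in the corrected fit. Both are larger shares than over all genes. With GC content and length removed 20 still rose. Leaving out 1 library moved the number that rose between 16 and 39 in the original fit and between 4 and 35 in the corrected fit. RPS3 went from 681, 684 and 720 CPM to 1026, 904 and 836 CPM, a log2FC of 0.41 ± 0.07 (SE), and RPS2 from 1184, 894 and 1075 CPM to 1717, 1489 and 1534 CPM. RPL13A rose with a log2FC of 0.47. RPS27L, a p53-inducible paralogue of RPS27, rose by 0.46 and by 0.55 after correction (76.4, 80.2 and 88.3 CPM to 121, 111 and 106 CPM). RPS3, RPS2 and RPS27L passed in every fit without 1 library, and RPL13A missed the corrected fit without siScr replicate 1 or dual knockdown replicate 1. Ribosomal protein genes have many processed pseudogenes, and how reads mapping to several places were divided could change their counts.

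Subunits of oxidative phosphorylation encoded in the nucleus, likewise gathered by symbol, gave 24 of 78 up and 0 down, 16 and 0 after the correction, and 10 and 0 with length removed too. Of all genes tested, 8.27%, 2.24% and 2.23% were up in these fits. Of the 11132 genes of at least 5 CPM, 1348, 382 and 381 were up. The median log2FC of the subunits was 0.17 with and without the GC correction. COX7C, a small subunit of cytochrome c oxidase with a GC content of 41.1%, went from 244, 279 and 266 CPM to 340, 304 and 287 CPM, and its log2FC rose from 0.24 to 0.33 with the correction. ATP5MC2, a subunit of the ATP synthase ring, rose with a log2FC of 0.39 that became 0.29. It passed in 7 of the 9 corrected fits without 1 library. NDUFS7, a complex I subunit of 64.8% GC, went from 0.74 to 0.31 and passed in 3 of the 9 corrected fits without 1 library. COX7C passed in 4 of the 9 original fits without 1 library and in all 9 corrected ones. Leaving out 1 library moved the number of subunits that rose between 8 and 29 in the original fit and between 3 and 23 in the corrected fit.

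**Figure D4:**
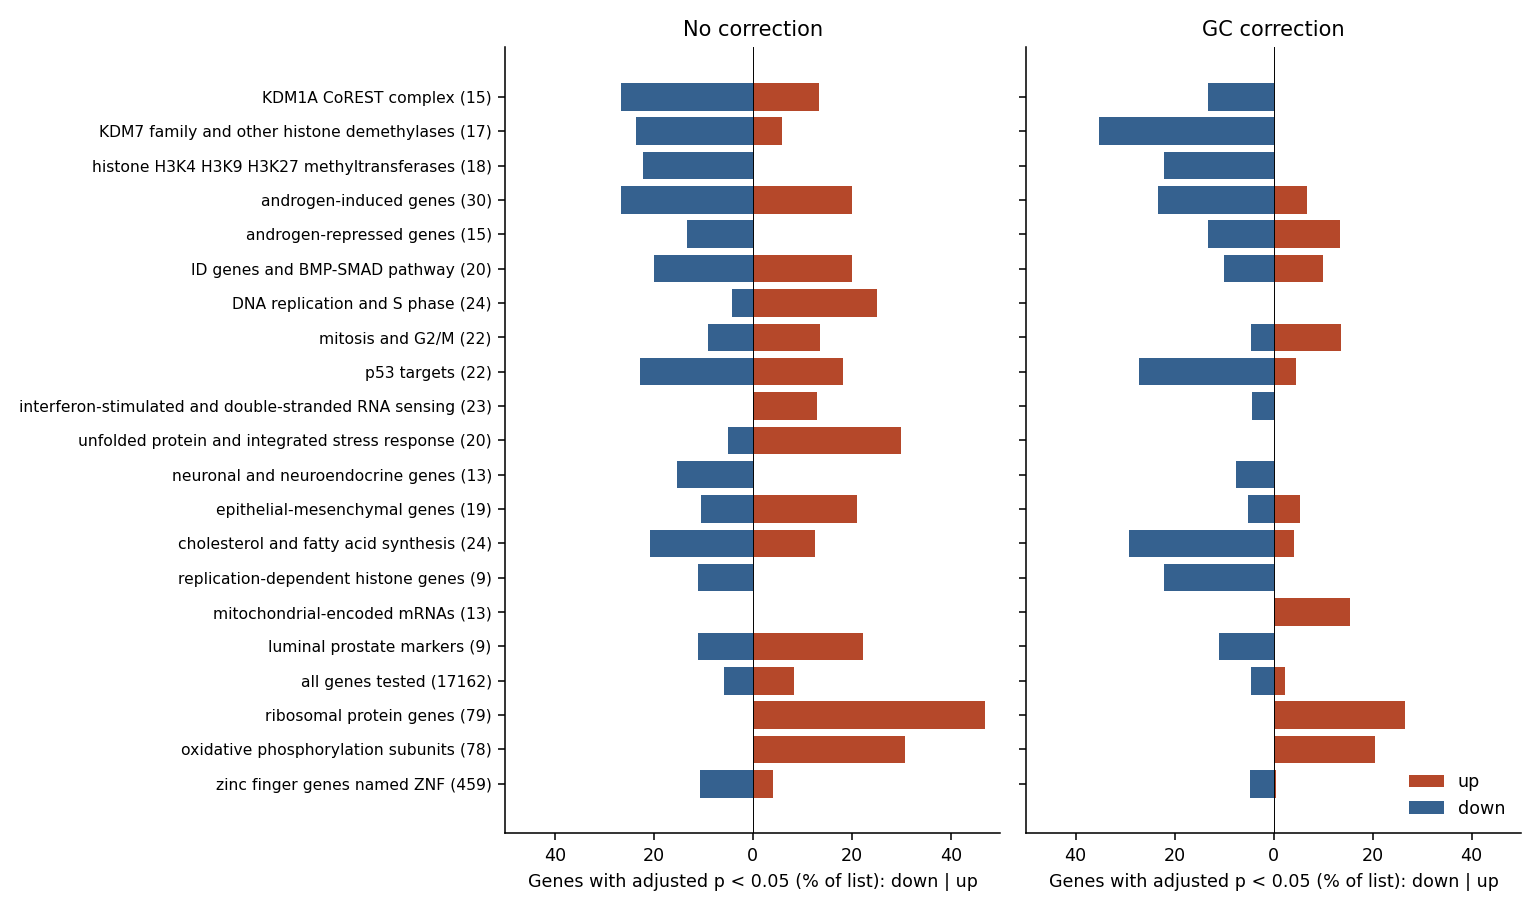
Horizontal bars give the percentage of tested genes of each list (number in parentheses) that were down (blue, left) or up (red, right) at an adjusted p under 0.05, without and with the GC correction. For S phase and stress lists the bars disappear with the correction, while those of ribosomal protein and oxidative phosphorylation genes shorten and stay on 1 side.

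The remaining genes were then set beside the dual knockdown in C4-2, which shares no library with LNCaP. Calls and log2FC values for C4-2 come from the fit without the GC correction. Of the 239 well-expressed genes that rose and remained without overlap of the groups, 131 were up-regulated in C4-2 and 0 down-regulated. There 15.4% of all genes tested were up. Of the 466 that fell and remained in the same way, 266 were down-regulated in C4-2 and 17 up-regulated, where 13.3% of all genes were down. These shares cover genes of every level, and no share was taken over well-expressed genes in C4-2. The knockdown response differed between the lines at an adjusted p under 0.05 for 75 of the 239 and 85 of the 466, against 12.7% of all genes. Of the 15 largest increases, 9 also passed upwards in C4-2 and 0 downwards. Of the 15 largest decreases, which include both targets, 8 also passed downwards and 2 upwards.

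F5 and GPCPD1 fell to a like degree in the lines, with a log2FC in C4-2 of -0.94 and -0.65, and UBE2S and NME2 rose there by 0.70 and 0.60. None of these 4 passed a test of the difference (adjusted p = 0.711, 0.956, 0.813 and 0.319). MAK fell further in C4-2 (log2FC -1.18, adjusted p of the difference 0.0407), as did BTG2 (log2FC -1.29, adjusted p of the difference 7.43e-05). RIMS1 and DUSP5 went opposite ways, with a log2FC of 0.64 and 1.93 in C4-2. DUSP5 averaged 0.391 CPM in C4-2 with siScr and 1.53 CPM with dual knockdown, so that value rests on few counts. CERK also rose in C4-2, with a log2FC of 1.12. MESP1 and ZNF428 rose in LNCaP and had a log2FC of -0.30 and -0.19 in C4-2 that did not pass there, with a difference that did (adjusted p = 0.00356 and 0.00978). KLK3 was lower in C4-2 after dual knockdown (log2FC -0.27, adjusted p = 0.0169), and the difference from LNCaP passed (adjusted p = 0.00429). Over all genes 404 passed both thresholds for the difference (2.3%), and 419 after the GC correction (2.38%). In C4-2 itself 4.43% of all genes passed both thresholds for the knockdown. The extent of knockdown and the cell line differ together, so their parts in these differences cannot be told apart.

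**Figure D5:**
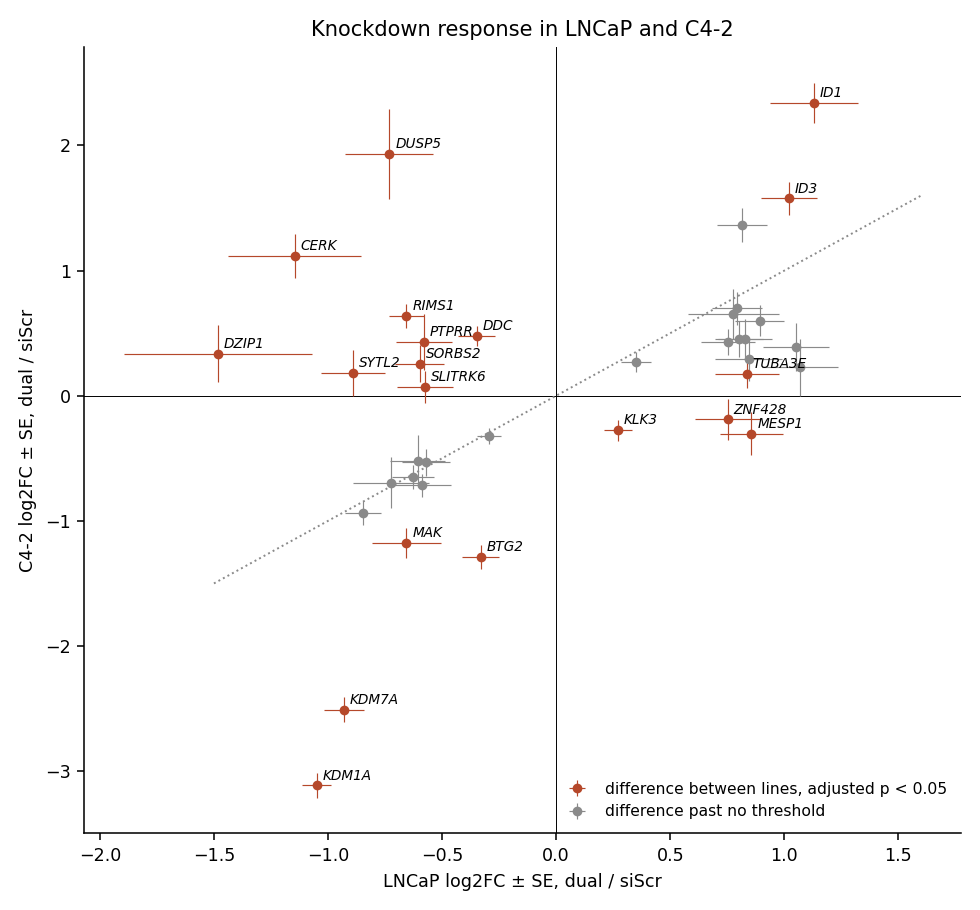
The log2FC ± SE of dual knockdown over siScr in LNCaP (horizontal) and C4-2 (vertical) is plotted for the 30 genes above and 7 others named in the text, with the dotted line marking equal values. Red points with names passed a test of the difference between the lines, among them RIMS1 and DUSP5 at upper left and ID1 and ID3 at upper right, and KDM1A and KDM7A lie far below the line.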

How the data were processed

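RNA Seq was used at gene level. The deposited values are counts of read pairs per gene, which the authors made by trimming with Trim Galore, aligning to GRCh38 with STAR and assigning to Ensembl release 83 genes with featureCounts v1.5.0-p1, without normalisation. Per the file headers no option for strand was set, so overlapping and antisense genes cannot be separated. Libraries were grouped by title. The 9 LNCaP libraries were fitted in R 4.3.3 with edgeR 4.0.16 (filterByExpr with a minimum count of 10 and a total of 15, TMM factors, quasi-likelihood F-test, 2-sided, Benjamini-Hochberg adjustment), and the 12 R1881 libraries of both lines for the interaction. Calls used an adjusted p under 0.05, and where stated an absolute log2FC of at least 1. GC content came from GENCODE 29 transcripts, for 56996 of 60675 listed genes. Each library's spline trend (5 degrees of freedom, genes of at least 1 CPM) on GC content, or on GC content and length, was entered as an offset for the corrected fits. Methods were run on simulated counts, without a GC trend and with the same trend in every dual knockdown library. In the data the slopes also varied among siScr libraries, so the simulation cannot show how the correction performs there. Gene names and plots were handled with Python 3.11.15.

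The members, lists and tests were chosen with earlier results of these data known. Named genes were the targets, genes past both thresholds in both fits at 1 CPM or more, the 15 largest changes each way among protein-coding genes of at least 5 CPM that passed both fits without overlap, KLK3, TMPRSS2 and FOXA1 by name, and up to 6 of each list. Some genes under this rule are not reported here. TMEM160, CNTN5, DZIP1L, CACNA1B, GATA2, CCNG1, UGT2B17, ID2 and the ribosomal and oxidative phosphorylation genes were named after their values were seen. Promoters of ID1 and ID3 were searched on both strands, where GGCGCC and GGGCGG can overlap. Alternatives were other scaling factors, filters, DESeq2 1.42.0, the likelihood ratio test, only the 6 libraries compared, a replicate block, the corrections, and each library left out.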

Additional observations from a re-analysis of the deposited data

Results flagged for a closer look

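The knockdown response of 31 genes named above differed between the lines, by edgeR's interaction test at an adjusted p under 0.05 over the 17589 genes tested in 12 libraries. Each value is the log2FC in C4-2 minus the log2FC in LNCaP. For the targets, lowered in both lines, it was -2.06 for KDM1A and -1.57 for KDM7A. Among genes of the ID family it was 1.21 for ID1, 0.56 for ID3 and 0.95 for ID2. Among genes that fell in LNCaP and did not pass in C4-2 it was 1.08 for SYTL2, 1.02 for PTPRR, 0.86 for SORBS2, 0.65 for SLITRK6, 0.56 for JMJD1C and 1.81 for DZIP1. Among genes that fell in LNCaP and rose in C4-2 it was 2.67 for DUSP5, 2.27 for CERK, 1.30 for RIMS1, 0.83 for DDC, 0.77 for STEAP4 and 3.18 for DZIP1L. Among genes that rose in LNCaP and did not pass upwards in C4-2 it was -1.15 for MESP1, -0.94 for ZNF428, -0.65 for TUBA3E, -0.54 for KLK3 and -1.97 for ENSG00000277048. Genes that fell in both lines, and further in C4-2, had values of -0.95 for BTG2, -0.52 for MAK, -0.56 for LRIG1 and -0.43 for ZMAT3. PLPP1 and RPS27L rose in both lines, and further in C4-2, with values of 0.53 for PLPP1 and 0.76 for RPS27L. Genes that passed in C4-2 and not in the original LNCaP fit had values of 0.50 for CCNG1, 0.90 for UGT2B17 and 0.33 for FOXA1. The highest adjusted p was 0.0407, for MAK. With the GC correction all 31 differences kept an adjusted p under 0.05. Groups of 3 libraries were not tested for outlying libraries.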

How the results depend on the processing

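KDM1A and KDM7A kept their direction and an adjusted p under 0.05 under every alternative run, with a log2FC of -1.07 to -1.01 and -0.95 to -0.74, and of -1.09 to -1.02 and -0.99 to -0.87 without each library. The count of genes past both thresholds was 19 with at least 10 counts in every library, 28 with a mean of at least 1 CPM, 9 with DESeq2 (7 up and 2 down) and 92 with the likelihood ratio test. It was 14 with the GC correction, 5 with GC content and length removed, and 5 with the replicate block and the GC correction, against 49 with the replicate block alone. No pairing by replicate number was visible. Deviations of libraries with the same number had correlations of -0.171, -0.126 and -0.00113, and those with unlike numbers -0.0748 to 0.162. These values cannot settle whether the libraries were paired. The block gave 2546 genes past an adjusted p. Without each library the count past both thresholds ranged from 14 to 73. The count past an adjusted p alone was 1167 with the GC correction and 676 with GC content and length removed. It was 721 with the replicate block and the GC correction, and 839 to 2936 without each library. With only the 2 groups compared, 3209 genes passed an adjusted p and 70 passed both thresholds. RLE factors gave 25 up and 26 down in place of 27 and 22. The genes past both thresholds in both fits numbered 28 without a filter, 6 with at least 10 counts in every library, 2 with DESeq2, 37 with the likelihood ratio test, 24 with only the 2 groups compared, 5 with the replicate block, and 4 to 21 without each library. Between 371 and 435 genes passed for the difference between the lines outside those fits, except 350 with DESeq2, and 318 to 627 without each library, with 627 without C4-2 dual knockdown replicate 1. The correlation of log2FC with GC content was 0.22 without a filter and 0.43 to 0.59 without each library. The log2FC of FOXA1 turned to -0.046 with the GC correction, with or without the replicate block, and to -0.032 with length removed too. That of ID2 lay between -0.014, without siScr replicate 3, and 0.24 without each library. The causes were not tested, apart from the smaller number of libraries or genes that an alternative leaves. Fits that leave out a library with the GC correction were added after the data had been seen. Over all alternatives, 87 values of named genes lost an adjusted p under 0.05, 7 gained it and 1319 did neither. Depth limits the 27 of the 49 genes with a mean under 1 CPM.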
